A study of Mus musculus with 2 samples.

Results

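The 44 genes described here encode proteins that copy DNA in S phase: the licensing and helicase complexes, the polymerases, the sliding clamp and its loader, the nucleases and ligase of the lagging strand, the chromatin assembly factors, the enzymes that make deoxynucleotides and the E2F factors that drive many of these genes. They were chosen by name, as a list of DNA replication and nucleotide synthesis genes, and every probe set annotated to them was taken. Of the 44, 43 were matched to a probe set that names them alone, among 18193 genes so matched. For 42 the signal was above a floor of 20.4, the median of both arrays together, on 1 or both arrays. E2f2, an activating E2F factor, had signals of 10.2 with IFNg and 12.2 untreated, under that floor on both. Chaf1a, the large subunit of chromatin assembly factor 1, was not analysed here.

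The series set a mouse RPE culture (retinal pigment epithelium, a pigmented sheet that serves the photoreceptors) with interferon gamma (IFNg, a T-cell and NK-cell cytokine) against one without it. The IFNg culture received 100 U/ml for 24 h, and the untreated culture did not. Both were primary cultures kept for 14 days in medium with 20% serum, moved to serum-free medium overnight before RNA was taken, and described as 95% cytokeratin-positive. How the serum-free night overlapped with the IFNg exposure is not given in the labels. Each culture was hybridised to 1 array of 45101 probe sets, so no replicate and no p-value stand behind any value, and their number limits the precision. Higher and lower refer to these 2 arrays and not to RPE cultures in general.

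DNA replication starts at origins bound by the origin recognition complex, where CDC6 and CDT1 load the MCM helicase in G1. In S phase the CDC45 and GINS proteins switch the helicase on, polymerases alpha, delta and epsilon copy the strands behind it, and PCNA holds the polymerases on the template. Many genes of this machinery are transcribed from E2F sites at the G1 to S transition, so their transcripts are commonly read as a sign of cycling cells. IFNg is known to slow the growth of many cultured epithelial cells, and adult RPE in the eye rarely divides, whereas RPE cells in culture with serum can.

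On the array of the IFNg culture the replication genes were on balance lower, by a small margin, with genes past 2-fold in both directions. Of the 42 above the floor, 6 were at least 2-fold lower with IFNg (14.3%, against 4.48% of all 12743 genes above the floor) and 2 were at least 2-fold higher (4.76%, against 8.82% of all genes). The 6 lower genes were Mcm2, Fen1, Pole, Orc1, Tk1 and E2f1, and the 2 higher genes were Rfc1 and Gmnn. At 1.5-fold, 15 were lower (35.7%, against 18.7% of all genes) and 3 were higher (7.14%, against 17.9%). At any size, 28 were lower and 14 higher, which is 66.7% lower against 57.5% of all genes, a share close to the background. For 41 members both arrays were above the floor, and 28 of them were lower, against 57.7% of all genes so measured. The median log2 ratio of IFNg over untreated was -0.32 over the members and -0.12 over all genes. Mcm2 and Tk1 had been seen to be lower on these arrays before the list was drawn up, and without them 4 of 40 were at least 2-fold lower (10.0%) and the median was -0.31. Fewer cycling cells and less transcript per cell cannot be told apart in such cultures.

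With 1 array each, the only spread that could be measured is that between probe sets, which may also read different transcripts. Between probe sets of the same gene, log2 ratios had an SD of 0.44 over 4419 genes, and of 0.46 over the 21 replication genes with more than 1 probe set above the floor on both arrays. Of the 42 genes, 21 had a log2 ratio within 0.44 of 0, while 17 were lower by more than that (40.5%, against 27.1% of all genes) and 4 higher by more (9.52%, against 22.5%). This spread leaves out differences between cultures, which were not measured.

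**Figure D1:**
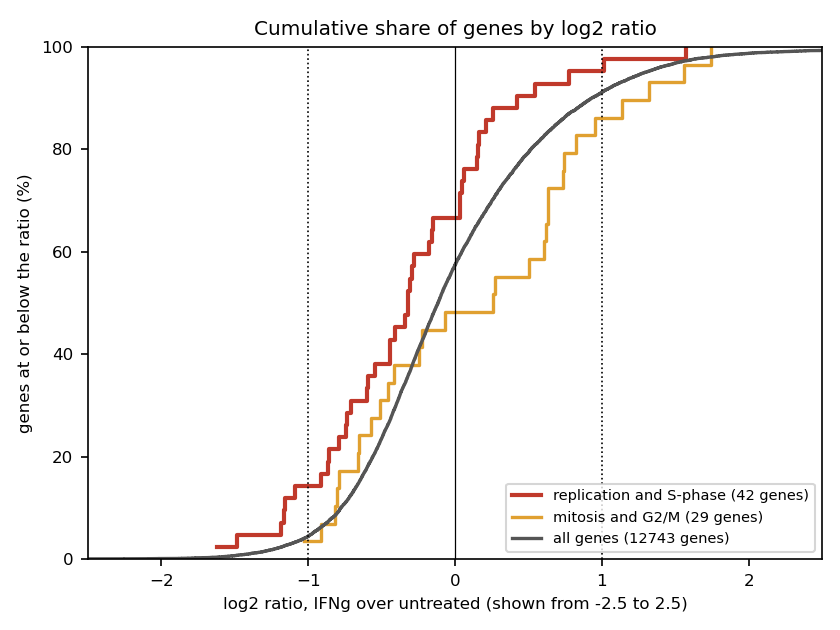
Cumulative share of genes (vertical axis, percent) at or below each log2 ratio (horizontal axis) for the 42 replication genes, 29 mitosis genes and all 12743 genes above the floor. The replication curve lies above the curve of all genes over the range plotted from its first step, with medians of -0.32 and -0.12, and at the 2-fold line on the left it stands at 14.3% against 4.48%.

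The cultures were checked against markers of RPE and of other cell types. The interferon response was present, with Gbp2 at 11151.0 with IFNg and 260.8 untreated. Of 10 leukocyte markers 7 were above the floor and all 7 were lower with IFNg (100%, against 57.5% of all genes). The summed signal of the list was 294 with IFNg and 566.3 untreated. Csf1r was at 77.5 with IFNg and 202.8 untreated. Cd3e, Cd79a and Itgam were under the floor on both arrays, and Ptprc was at 7.0 with IFNg and 20.8 untreated. Of 11 fibroblast markers all were above the floor (sum 57840.4 with IFNg and 63304.7 untreated) and none passed 2-fold. Of 10 RPE markers above the floor 7 were lower (70.0%, against 57.5% of all genes). At least 2-fold lower were 4 (40.0%, against 4.48%): Ttr, Tyrp1, Rdh5 and Rlbp1. The sum of the list was 4311.9 with IFNg and 4040.6 untreated. Tyr was 1.63-fold lower, at 605.7 with IFNg and 986.1 untreated. Otx2 was at 388.5 with IFNg and 410.9 untreated, and Rpe65, Best1 and Dct were under the floor on both arrays. In the same list Krt18, a keratin of simple epithelia, was 1.76-fold higher, at 2445.9 with IFNg and 1390.4 untreated, and Mitf was 1.51-fold higher, at 99.6 with IFNg and 66.0 untreated. The 5 endothelial markers above the floor were all lower within 2-fold (100%, against 57.5% of all genes lower). The sum of their list was 394.2 with IFNg and 541.3 untreated, with Vwf under the floor on both. The 3′ over 5′ signal ratio, a measure of RNA quality, was 1.38 with IFNg and 1.24 untreated for actin and 1.03 and 0.908 for Gapdh. The part of these in the values of the replication genes was not tested.

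**Figure D2:**
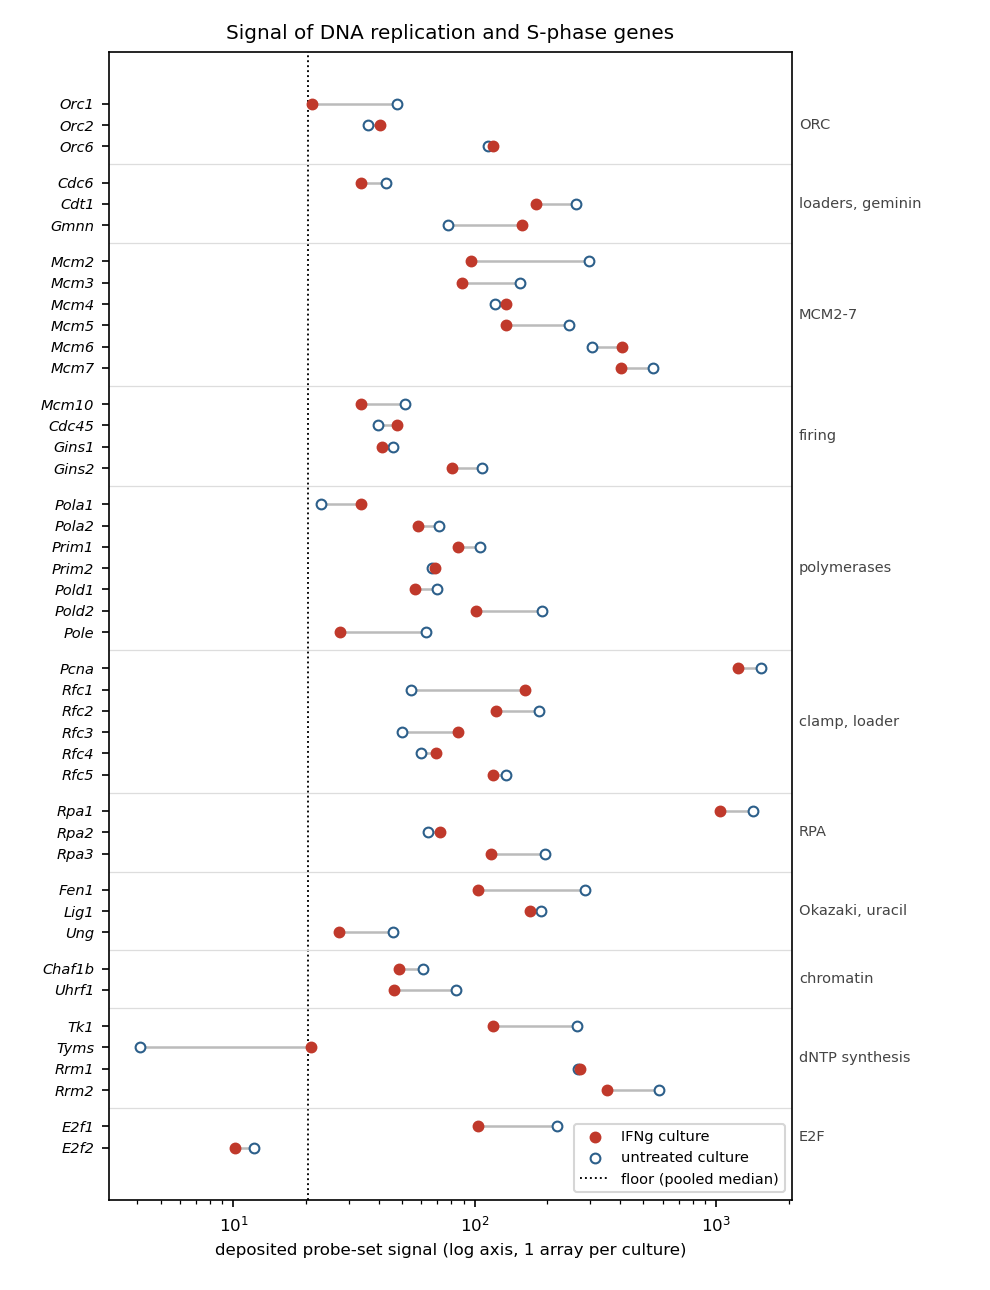
Deposited signal (log axis) of the brightest probe set that names each replication gene alone, on the IFNg array (filled) and the untreated array (open), grouped by role, with the floor of 20.4 as a dotted line. Long bars to the left of the open point mark Mcm2, Fen1, Tk1, Pole, Orc1 and E2f1, and long bars to the right mark Tyms, Rfc1 and Gmnn. The Tyms bar is drawn from its unfloored untreated signal of 4.1, and Tyms is above the floor only with IFNg. E2f2 lies under the floor on both arrays.

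The origin recognition complex marks where replication can begin. Orc1, its largest subunit and an ATPase, had a signal of 21.2 with IFNg and 47.5 untreated, 2.24-fold lower, and its IFNg signal lay just above the floor. Its second probe set was under the floor on both arrays. Orc2, another core subunit, was at 40.6 with IFNg and 36.2 untreated (log2 ratio 0.17). Further Orc2 probe sets were at 50.5 against 26.6 and at 25.5 against 2.7, both higher with IFNg. Orc6 was at 118.7 with IFNg and 113.5 untreated, nearly equal, and the sign of its ratio turned under a common 75th percentile and quantile normalization. Of these 3 subunits, then, 1 was lower past 2-fold (33.3%, against 4.48% of all genes) and the others were within it. The remaining subunits stand in a further list below, and each was higher with IFNg. Orc4 was 2.49-fold higher (196.3 with IFNg, 78.7 untreated), Orc3 1.55-fold and Orc5 1.23-fold.

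Both loaders were lower within 2-fold, Cdc6 by less than the SD of 0.44 between probe sets, and the inhibitor of CDT1 was higher. Cdc6, the ATPase that recruits the helicase to the origin, was at 33.9 with IFNg and 43.0 untreated (log2 ratio -0.34). Cdt1, its partner in loading, was at 179.5 with IFNg and 261.8 untreated, 1.46-fold lower. A second Cdt1 probe set was at 85.3 against 149.9, 1.76-fold lower. Gmnn encodes geminin, which binds CDT1 after origins have fired and blocks a second round of loading. Its single probe set was at 156.4 with IFNg and 77.2 untreated, 2.03-fold higher, and it fell within 2-fold under a common 75th percentile and quantile normalization. Cdt1 and Gmnn thus differed in opposite directions, with only 1 probe set behind the geminin value.

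The subunits of the MCM2-7 helicase, a ring in which each of 6 related proteins is needed, did not differ alike. Mcm2 had the lowest ratio of all replication genes, at 96.5 with IFNg and 296.9 untreated, 3.08-fold lower. Its second probe set was at 91.0 with IFNg and 209.3 untreated, 2.30-fold lower, so both passed 2-fold. Mcm5 was at 134.4 with IFNg and 245.2 untreated (1.82-fold lower), and at 79.1 against 125.8 by another probe set (1.59-fold lower). Mcm3 was at 88.7 with IFNg and 153.4 untreated (1.73-fold lower). Of its further probe sets 3 were lower (log2 ratios of -0.61, -0.55 and -0.17) and 1 was higher, at 49.7 with IFNg and 41.4 untreated.

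Mcm7 was at 404.7 with IFNg and 549.1 untreated (log2 ratio -0.44), with log2 ratios of -0.50 and -0.27 for bright further probe sets and 0.39 for a dimmer one. Mcm4 was at 134.7 with IFNg and 121.2 untreated (log2 ratio 0.15), and a dimmer probe set of it had -0.39. Mcm6 had the highest ratio of the ring, at 408.9 with IFNg and 305.4 untreated, 1.34-fold higher. A second Mcm6 probe set was 1.49-fold higher, at 104.5 against 69.9, and another, under the floor with IFNg and at 34.6 untreated, was at least 1.70-fold lower. The 6 subunits had log2 ratios from -1.62 to 0.42 with a median of -0.62.

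The E2F sites by which many of these genes are known to be driven were looked for in RefSeq promoter windows of 250 bases before to 50 bases after each gene start (build GRCm38.p6). Of the 44 genes, 37 matched a window. The letters searched, on both strands, were TTTCCCGC, TTTCGCGC, TTTGCCGC and TTTGGCGC, with TTCCCGCC as a second form counted apart. Matches on opposite strands can overlap, as can the second form with the others. The first set was found in 13 of the 37 genes (35.1%, against 2.60% of all 27025 genes with a window and 3.29% of protein-coding ones), and either form in 17 (45.9%, against 4.46% of all genes). The CCAAT box stood in 24 of 37 (64.9%, against 41.1%). The interferon-related GAS element, TTCNNNGAA, was in 3 (8.11%, against 9.55%) and the cell-cycle element TTTGAA in 5 (13.5%, against 20.2%).

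The windows of the helicase genes at both ends of the ring's range, and of Orc1, are shown because their values lie apart while some share these letters. Capitals mark the E2F matches. The Mcm2 window (chr6:88898731-88899030, minus strand) holds no E2F match of either form and has TTTGAA 70 bases before the start. In the Mcm5 window (chr8:75109259-75109558, plus strand) matches on opposite strands overlap, starting 153 and 149 bases before the gene start. The Mcm6 window (chr1:128359656-128359955, minus strand) has a similar overlapping pair starting 110 and 106 bases before the start and another match 47 bases before it. The Orc1 window (chr4:108579204-108579503, plus strand) has 1 match, 27 bases before the start.
Mcm2: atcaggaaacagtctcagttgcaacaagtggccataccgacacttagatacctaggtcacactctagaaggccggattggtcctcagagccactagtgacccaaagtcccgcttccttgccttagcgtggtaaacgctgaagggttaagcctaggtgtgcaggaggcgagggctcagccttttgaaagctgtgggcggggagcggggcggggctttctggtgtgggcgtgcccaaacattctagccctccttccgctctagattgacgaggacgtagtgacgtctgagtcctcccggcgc
Mcm5: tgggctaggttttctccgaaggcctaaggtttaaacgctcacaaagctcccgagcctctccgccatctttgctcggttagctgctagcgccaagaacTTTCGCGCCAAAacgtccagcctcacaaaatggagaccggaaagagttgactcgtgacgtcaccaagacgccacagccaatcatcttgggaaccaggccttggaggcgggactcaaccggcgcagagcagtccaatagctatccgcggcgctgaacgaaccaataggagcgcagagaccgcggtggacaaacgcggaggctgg
Mcm6: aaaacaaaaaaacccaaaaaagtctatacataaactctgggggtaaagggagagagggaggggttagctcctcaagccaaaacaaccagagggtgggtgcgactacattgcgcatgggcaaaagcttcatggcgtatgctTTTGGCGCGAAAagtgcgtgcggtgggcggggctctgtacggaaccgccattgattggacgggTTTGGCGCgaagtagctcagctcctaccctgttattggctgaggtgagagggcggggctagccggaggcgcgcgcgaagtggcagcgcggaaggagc
Orc1: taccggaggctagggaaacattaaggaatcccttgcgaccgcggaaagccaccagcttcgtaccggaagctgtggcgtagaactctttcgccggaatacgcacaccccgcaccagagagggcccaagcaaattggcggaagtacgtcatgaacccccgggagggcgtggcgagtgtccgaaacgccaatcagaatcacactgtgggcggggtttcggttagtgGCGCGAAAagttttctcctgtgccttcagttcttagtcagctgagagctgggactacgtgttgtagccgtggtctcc

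Of 4 factors that turn the loaded helicase into a moving fork, 3 were lower, none past 2-fold. Mcm10, a scaffold for firing, was at 33.8 with IFNg and 51.3 untreated (1.52-fold lower). Cdc45, which joins MCM and GINS into the active helicase, was at 47.6 with IFNg and 39.7 untreated (log2 ratio 0.26). The GINS subunits Gins1 (41.1 with IFNg, 45.7 untreated) and Gins2 (80.4 with IFNg, 106.9 untreated) had log2 ratios of -0.15 and -0.41.

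Among 7 genes for polymerase and primase subunits, 5 were lower (71.4%, against 57.5% of all genes), a difference of few genes. Of the 7, 1 was at least 2-fold lower (14.3%, against 4.48%). Pole, the catalytic subunit of the leading-strand polymerase epsilon, was at 27.6 with IFNg and 62.8 untreated, 2.28-fold lower by its single probe set. Pold2, a regulatory subunit of the lagging-strand polymerase delta, was at 100.8 with IFNg and 189.3 untreated, 1.88-fold lower. The catalytic subunit of that polymerase, Pold1, was at 56.7 with IFNg and 69.6 untreated (log2 ratio -0.30). Another probe set, nearly as bright, was at 65.0 against 60.1. The sign of Pold1 turned under quantile normalization, where that other probe set was read.

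Polymerase alpha and primase, which lay down the primers, were within 2-fold throughout. Pola1, the catalytic subunit, was close to the floor untreated, at 33.7 with IFNg against 23.1 untreated (1.46-fold higher). Pola2 was at 58.4 with IFNg and 70.8 untreated (log2 ratio -0.28). Prim1 was at 85.1 with IFNg and 105.3 untreated (log2 ratio -0.31), but its dimmer probe set had 0.59. Prim2 was at 68.7 with IFNg and 66.6 untreated (log2 ratio 0.04, with the sign turned under a common 75th percentile and quantile normalization), and its dimmer probe set had -0.55.

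Pcna, the sliding clamp, was among the genes far above the floor, at 1228.6 with IFNg and 1533.5 untreated, 1.25-fold lower by its single probe set (log2 ratio -0.32, equal to the median of the whole list). The clamp loader, replication factor C, was split. Its large subunit gene Rfc1 had the highest ratio of all replication genes, at 161.3 with IFNg and 54.2 untreated, 2.98-fold higher. Other Rfc1 probe sets were at 84.7 against 49.4 (1.71-fold higher) and, with the untreated array at the floor, at 22.6 against 17.1. Raising the floor to the pooled upper quartile, above the untreated signal, leaves a bound of 0.90 for the Rfc1 log2 ratio.

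The small subunit Rfc3 was at 85.3 with IFNg and 49.9 untreated (1.71-fold higher), and a second probe set at 71.0 against 57.6 was 1.23-fold higher. Rfc4 was at 68.9 with IFNg and 59.6 untreated (log2 ratio 0.21). Rfc2 was lower, at 122.9 with IFNg and 184.9 untreated (log2 ratio -0.59), with dim further probe sets at -0.42 and 0.25. Rfc5 was at 119.2 with IFNg and 135.0 untreated (log2 ratio -0.18). The loader therefore had 3 subunit genes above 0 and 2 below it.

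Replication protein A coats the single strands that the helicase exposes. Rpa1, its large subunit, was at 1039.2 with IFNg and 1415.1 untreated, 1.36-fold lower, and its second probe set was 1.39-fold lower at 353.6 against 492.2. Rpa3, the smallest subunit, was at 117.1 with IFNg and 195.3 untreated (1.67-fold lower). For Rpa2 the probe sets went apart, at 71.5 with IFNg and 64.1 untreated for the brighter and at 39.4 against 87.6 for the other, 2.22-fold lower.

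Fen1, the flap nuclease that trims Okazaki fragments, was 2.80-fold lower by the probe set chosen, at 102.7 with IFNg and 287.3 untreated. Its other probe set was at 104.6 with IFNg and 80.4 untreated (log2 ratio 0.38), so the direction of Fen1 rests on which is used, and both have IDs that mark shared sequence. Lig1, the ligase that seals the fragments, was at 168.9 with IFNg and 187.4 untreated (log2 ratio -0.15). Ung, which removes uracil from DNA, was at 27.5 with IFNg and 46.0 untreated (1.67-fold lower).

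The 2 genes measured for the assembly and marking of new chromatin were both lower, as were 57.5% of all genes. Uhrf1, which recruits the maintenance methyltransferase to hemimethylated DNA, was at 46.1 with IFNg and 83.7 untreated, 1.82-fold lower. Its second probe set was at 12.9 with IFNg and 44.7 untreated, at least 2.19-fold lower. Chaf1b, the middle subunit of chromatin assembly factor 1, was at 48.7 with IFNg and 60.8 untreated (log2 ratio -0.32).

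The enzymes of deoxynucleotide supply differed from each other. Tk1, the S-phase thymidine kinase of the salvage pathway, was at 118.6 with IFNg and 265.1 untreated, 2.24-fold lower by its single probe set. Rrm2, the S-phase subunit of ribonucleotide reductase, was lower in all 3 of its probe sets. They were at 353.6 against 577.4 (1.63-fold), at 188.3 against 318.0 (1.69-fold) and at 218.7 against 316.9 (1.45-fold). Rrm1, the large subunit, which is more stable through the cycle, was at 272.9 with IFNg and 266.9 untreated, and at 266.0 against 264.2 by another probe set, with a sign that turned under a common 75th percentile. The subunits of this enzyme thus went apart, with Rrm2 lower and Rrm1 nearly equal. Tyms, thymidylate synthase, was at 20.9 with IFNg and 4.1 untreated by the brightest probe set of its own, just above the floor with IFNg and under it untreated. A brighter one at 112.7 against 152.0 also names the pseudogene Tyms-ps and cannot be assigned to either.

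E2f1, the E2F activator of S-phase genes and itself an E2F target, was 2.13-fold lower, at 103.2 with IFNg and 219.4 untreated. Its second probe set was at 41.8 with IFNg and 84.2 untreated, 2.01-fold lower. Mcm2 and E2f1 were the only replication genes with 2 probe sets past 2-fold in 1 direction, although Uhrf1 had a bound past it in its second.

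Over all probe sets, 95 were annotated to the list, 94 of them to 1 gene. Of these 94, 77 were above the floor, and 49 of the 77 were lower with IFNg (63.6%, against 54.2% of all probe sets) and 28 higher. At least 2-fold lower were 10 (all probe sets: 4.69%) and at least 2-fold higher 2 (all probe sets: 9.36%). Of the 21 genes with more than 1 probe set above the floor on both arrays, 7 were lower in every one, 5 were higher in every one and 9 were mixed. The 7 were Cdt1, E2f1, Gins2, Mcm2, Mcm5, Rpa1 and Rrm2, and the 5 were Mcm6, Orc2, Rfc1, Rfc3 and Rrm1. Of the 5, Rrm1 was nearly equal in both of its probe sets above the floor (log2 ratios of 0.01 and 0.03). Mcm6 also had a probe set under the floor with IFNg that was at least 1.70-fold lower. The share of all genes that agree in this way was not counted.

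Some probe sets have an ID that marks shared or cross-hybridising sequence. Among the 32 of members so marked, 24 were lower (75%, against 59.7% of all marked probe sets) and the median log2 ratio was -0.44, against -0.16. Among the 45 without such a mark, 25 were lower (55.6%, against 52.2%), a share near the background, and the median was -0.17, against -0.03. With genes read from unmarked probe sets alone, 36 members stayed above the floor. Of these, 21 were lower (58.3%, against 56.0% of all genes read this way), again near the background, and 4 were at least 2-fold lower (11.1%, against 4.47%). Their median was -0.23, against -0.10.

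**Figure D3:**
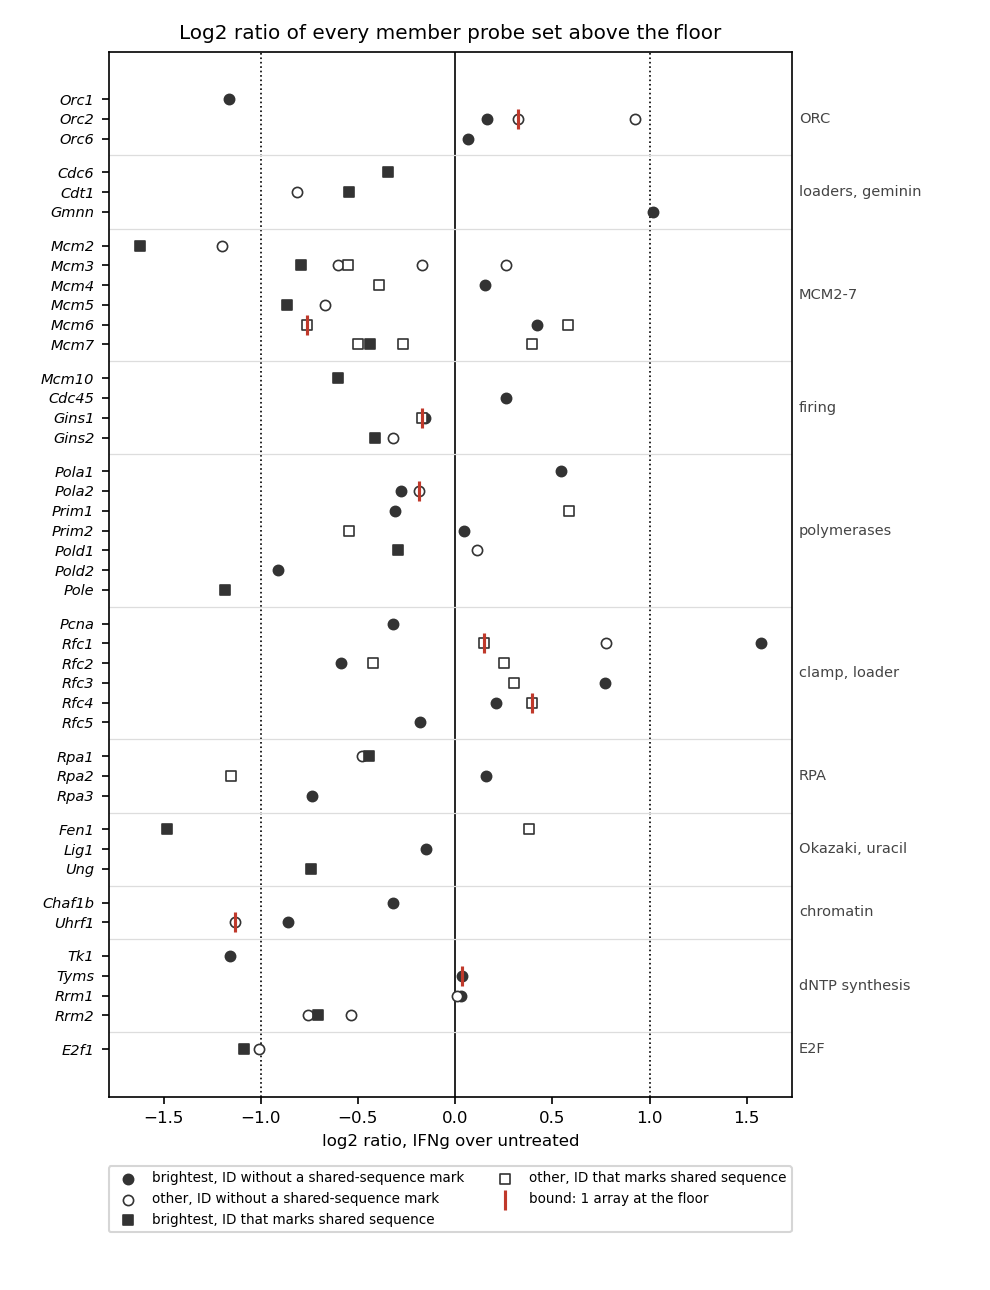
Log2 ratio (IFNg over untreated) of every replication-gene probe set above the floor, 1 row per gene grouped by role. Filled symbols are the brightest probe set of a gene, squares have IDs that mark shared sequence, red ticks are bounds with 1 array at the floor, and dotted lines mark 2-fold. Mcm2 and E2f1 have both symbols at or left of the 2-fold line, while the symbols of Fen1 and Rpa2 lie on both sides of 0.

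Members were also counted by brightness. Of those with a mean signal under 100, 12 of 20 were lower (60.0%, against 54.4% of all such genes), near the background. Between 100 and 300, 12 of 17 were lower (70.6%, against 57.3%). At 300 and over, 4 of 5 were lower (80.0%, against 63.7%), again a difference of few genes. The medians in these classes were -0.29, -0.59 and -0.44 for members and -0.08, -0.13 and -0.19 for all genes.

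Further lists of the same processes had medians on both sides of 0. Of 33 further fork and licensing genes above the floor, 3 were at least 2-fold lower (9.09%, against 4.48% of all genes): Asf1b, Rnaseh2c and Pole4. Another 5 were at least 2-fold higher (15.2%, against 8.82%): Top1, Dbf4, Pold3, Orc4 and Rif1. The median log2 ratio of this list was 0.12. Asf1b, a histone chaperone of S phase, was at 59.1 with IFNg and 133.5 untreated. Top1, the topoisomerase that relaxes DNA ahead of forks, was at 295.6 with IFNg and 97.7 untreated, 3.03-fold higher. Dbf4, the activating subunit of the origin-firing kinase, was at 124.5 with IFNg and 45.4 untreated, 2.74-fold higher. Pold3 was 2.68-fold higher by its brightest probe set (93.0 with IFNg, 34.7 untreated), while the others read 40.0 against 40.1 and 30.7 against 31.0. Dnmt1, the maintenance methyltransferase, was at 153.7 with IFNg and 217.6 untreated (log2 ratio -0.50).

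In a list of 17 further deoxynucleotide genes, 13 were lower (76.5%, against 57.5% of all genes), none past 2-fold, and the median was -0.41. The 2 genes past 2-fold were higher (11.8%, against 8.82% of all genes). Samhd1 encodes a phosphohydrolase that breaks down deoxynucleotide triphosphates, and it had the largest difference of any gene in the S-phase and mitosis lists, at 2776.5 with IFNg and 216.0 untreated, 12.9-fold higher. All 5 of its probe sets above the floor were higher, with log2 ratios from 1.15 to 3.68. Upp1, uridine phosphorylase, was at 291.0 with IFNg and 79.9 untreated (3.64-fold higher). Against these stood the salvage kinase Dck (74.2 with IFNg, 122.1 untreated, log2 ratio -0.72) and the pyrimidine synthesis genes Umps (-0.88) and Cad (-0.80).

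The G1/S regulators had a median log2 ratio of 0.00 over 22 genes, with 11 lower and 11 higher. Past 2-fold were 2 of them, both higher (9.09%, against 8.82% of all genes), a share near the background. Rbl1, the pocket protein p107, was at 134.2 with IFNg and 43.1 untreated, 3.11-fold higher. Lin54, a subunit of the DREAM complex, was at least 2.14-fold higher (43.7 with IFNg, 7.9 untreated). The cyclin genes Ccne1 (-0.57) and Ccna2 (-0.21) and the kinase Cdk1 (-0.70) were lower within 2-fold. A further cyclin gene, Ccne2, was at least 1.49-fold higher (30.5 with IFNg, 17.2 untreated). Among 17 checkpoint and fork repair genes 4 were at least 2-fold higher (23.5%, against 8.82% of all genes): Usp1, Atr, Blm and Hus1. Lower past 2-fold were 2 (11.8%, against 4.48%), Atrip and Mms22l, and the median of the list was 0.68. The Blm value is a bound, with the untreated array at the floor. Usp1, the deubiquitinase of PCNA and FANCD2, was at 414.9 with IFNg and 116.6 untreated, 3.56-fold higher, whereas Atrip, the partner of the kinase ATR, was at 20.3 with IFNg and 51.7 untreated, at least 2.53-fold lower.

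Replication-dependent histone genes have transcripts that are made in S phase and mostly lack poly(A) tails. Of 7 measured, 6 were lower (85.7%, against 57.5% of all genes), and 3 of them past 2-fold (42.9%, against 4.48%). Per the labels, cDNA was primed with a T-tailed oligonucleotide, and how fully these transcripts were read was not tested. H2bc22, with the lowest ratio, was at 26.3 with IFNg and 206.7 untreated, and the ID of its probe set marks shared sequence. With IFNg all 3 lay near the floor of 20.4 or under it. H3c7 was at 21.3 with IFNg and 46.0 untreated. H2bc21 was at 18.3 with IFNg and 45.6 untreated, so its ratio is a bound. The brightest of the list, H1f2 (2684.0 with IFNg, 3322.2 untreated) and H2ac19 (467.0 with IFNg, 877.3 untreated), were lower within 2-fold. The 5 replication-independent histone variants measured were all lower within 2-fold (100%, against 57.5% of all genes lower). Their median was -0.45, and 8 housekeeping genes had a median of -0.03.

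Mitosis and G2/M genes serve the stages after S phase, and their difference from the replication genes was not tested, with 1 array each. Of 29 mitosis genes, 14 were lower (48.3%, against 57.5% of all genes). At least 2-fold lower was 1 (3.45%, against 4.48%), Aurkb, at 60.1 with IFNg and 122.3 untreated. At least 2-fold higher were 4 (13.8%, against 8.82%): Nusap1, Tpx2, Bub1 and Top2a. The Bub1 value is a bound, with the untreated array at the floor. The same holds for Kif11, Cenpe, Ttk and Ndc80, which were higher with bounds within 2-fold. The median log2 ratio of the mitosis genes was 0.26, against -0.32 for the replication genes. The summed signal was lower with IFNg in both lists. It was 4158.0 with IFNg and 4401.1 untreated for mitosis, and 6738.9 and 8784.1 for replication. The proliferation marker Mki67 was at 118.4 with IFNg and 99.0 untreated. The spindle genes Nusap1 (114.6 with IFNg, 34.2 untreated) and Tpx2 (323.8 with IFNg, 109.8 untreated) had the highest ratios, while Ube2c (394.5 with IFNg, 694.4 untreated) and Cenpa (159.5 with IFNg, 300.8 untreated) were lower within 2-fold.

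**Figure D4:**
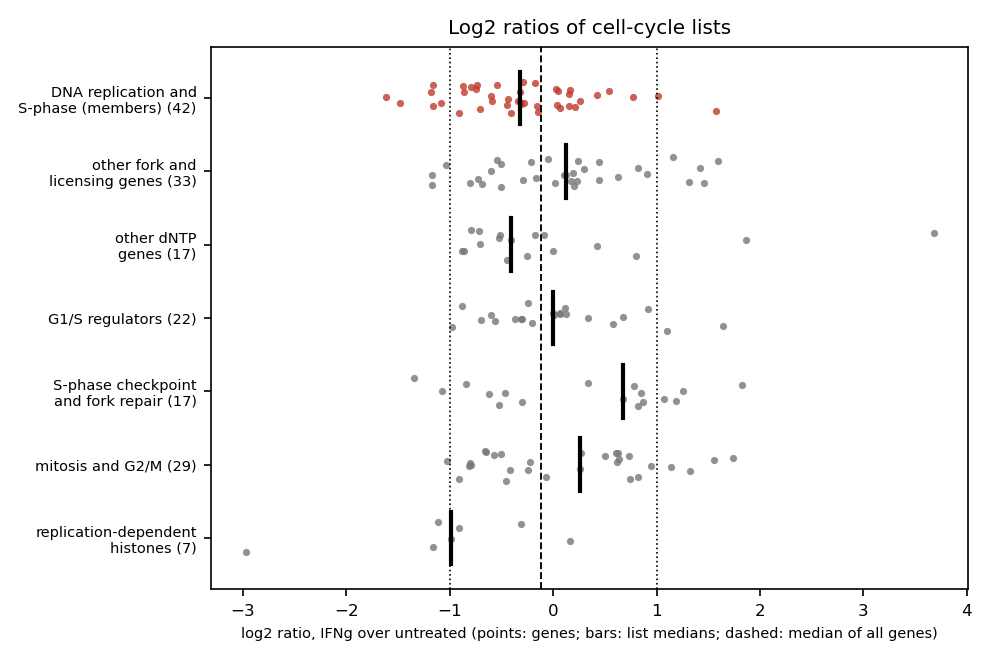
Log2 ratios (IFNg over untreated) of single genes above the floor in the replication list and 6 further lists of S phase, checkpoint and mitosis genes, with list medians as bars, bounds drawn at their bound, dotted lines at 2-fold and the median of all genes dashed. The replication genes have a median of -0.32, the checkpoint and repair genes of 0.68 and the mitosis genes of 0.26, and the point at the far right is Samhd1.

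Among measured members, those with a match to the first set of E2F letters had a median log2 ratio of -0.39 (12 genes, 9 lower) and those without had -0.32 (23 genes, 15 lower). With either form counted, the medians were -0.31 (15 genes) and -0.38 (20 genes). The ranges overlapped widely, from -1.16 to 0.77 with a match to the first set and from -1.62 to 1.57 without. Mcm5 and Mcm6, with matching overlapping pairs, had log2 ratios of -0.87 and 0.42. A match is a description of letters and says nothing on binding. A gene without a match may hold sites with other letters or outside its window, which were not searched. E2f1, described above as an E2F target, was counted without a match.

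**Figure D5:**
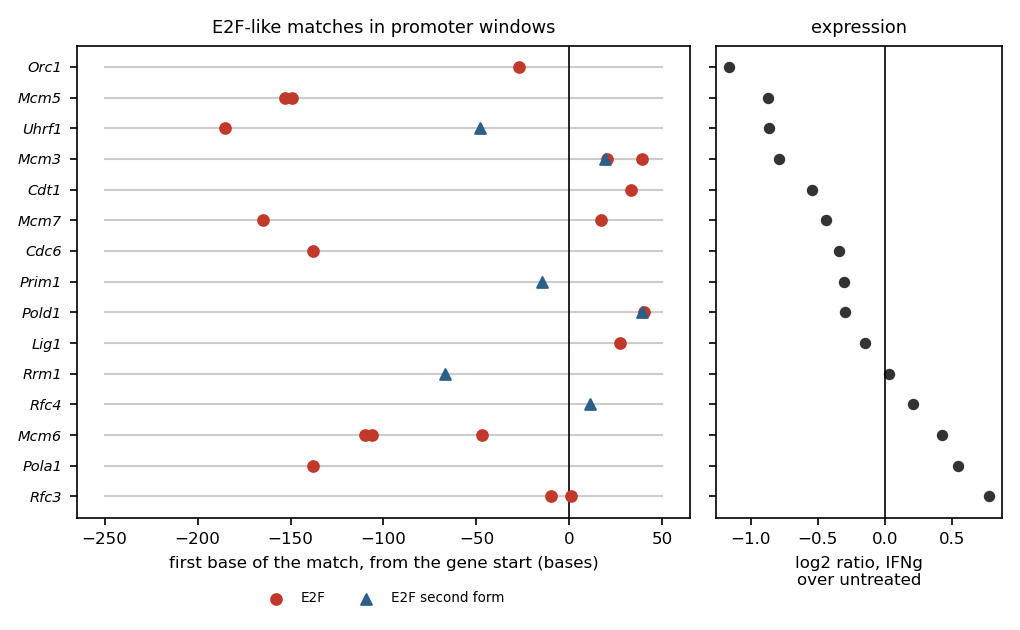
Left, distance in bases from the gene start to the first base of each E2F-like match in the promoter windows of the 15 measured replication genes that hold one (circles, first set; triangles, second form; several windows of a gene share a row). Right, the log2 ratio (IFNg over untreated) of the same gene, from Orc1 at -1.16 to Rfc3 at 0.77, with matches present across the whole range.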

How the data were processed

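RNA of 2 mouse RPE cultures was labelled with biotin and read on 1 array each, per the labels. The authors deposited 1 signal intensity per probe set on a linear scale, and how it was summarised or background-corrected is not given in the sources used here. The 64 control probe sets were left out and each array was scaled to a common mean after trimming 2% at each end. Signals under the pooled median of 20.4 were raised to it before log2 was taken, so a ratio with 1 array there is only a bound. Genes were named through the platform's annotation, where 34945 probe sets name 1 gene, 932 several and 9160 none, and each gene was read from the brightest probe set (by mean log2 signal) that names it alone. Dim signals hold an unknown share of background, so their ratios are uncertain in size. Members and lists were chosen with earlier results of these data known. All members could be named, and from each other list up to 6 genes past 2-fold, largest first, with defining genes within 2-fold as counter-examples. H1f10, which the symbol rule for histones also took, is replication-independent and was left out. The planned protein comparison was not made, since no protein sequences were used here. Alternatives changed the scaling, floor, pseudocount, probe-set rule and fold threshold. The code for the floor and fold rules was run on simulated signals with known folds, a check of the code that gives no chance level for the counts. Python 3.11.15, numpy 2.4.6, pandas 2.3.3, statsmodels 0.14.6 and matplotlib 3.10.9 were used.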

Additional observations from a re-analysis of the deposited data

How the results depend on the processing

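The count of 6 genes at least 2-fold lower was the same on unscaled deposited values, after scaling to a common 75th percentile, after quantile or loess normalization and with the floor lowered to the 25th percentile of all signals. It was 4 with the floor raised to the 75th percentile and without probe sets that mark shared sequence. It was 3 when 16 was added to each signal instead of a floor. With the mean over all probe sets, where folds shrink by construction, it was also 3. At 1.5-fold it was 15 and at 3-fold 1. Only Mcm2 and Tk1, seen to be lower before the list was drawn up, stayed at least 2-fold lower under every alternative at the 2-fold threshold. With the pseudocount Orc1, Pole and E2f1 had log2 ratios of -0.77, -0.85 and -0.98. With the mean, Orc1, Fen1 and E2f1 had -0.58, -0.55 and -0.70. The raised floor left Orc1 and Pole unmeasured, and the unmarked probe sets left out Fen1 and Pole. The count of 2 genes at least 2-fold higher was 1 with a common 75th percentile, with quantile normalization, with the pseudocount and with the mean over probe sets, 3 with the lowered floor, and 0 with the raised floor and at 3-fold. The median log2 ratio of -0.32 was -0.40 with a common 75th percentile, -0.44 with the raised floor (25 genes), -0.20 with the mean over probe sets and -0.23 without probe sets that mark shared sequence, and lay below the median of all genes in each. Of 42 genes, 26 had a negative and 9 a positive log2 ratio under all alternatives that measured them, and 7 varied in sign: Mcm4, Orc6, Pold1, Prim1, Prim2, Rpa2 and Rrm1. Of these, Orc6, Prim2 and Rrm1 did so under a scaling (a common 75th percentile or quantile normalization). Pold1 did so where its other probe set was read, under quantile normalization (0.01) and without probe sets that mark shared sequence (0.11). No gene past 2-fold changed sign, but no alternative read Fen1 by its other probe set alone, which was higher with IFNg (log2 ratio 0.38). No paired analysis was possible because each group has 1 array. The cause of the other shifts was not tested. The number of arrays limits all of these values.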
